A study of Mus musculus with 3 samples.

Results

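The stretch of mouse chromosome 14 from 41.0 to 45.5 Mb (GRCm38) holds a dense cluster of recently duplicated genes, most of which still carry provisional names such as Gm3327 or Gm16439. Its members were all SNPs listed in the exome files at those positions, 911 of 452304 SNPs, and they fell in 128 of 30212 genes. No position was listed more than once. The stretch was selected on its allelic counts, since earlier results of these same libraries were known, so the allelic values below are a description and were not tested.

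Allelic balance was measured in DNA of F1 females between C57BL/6 (B6, the mother, C57BL/6J in the methods) and CAST/EiJ (CAST, the father), whose haematopoietic system had been rebuilt from few haematopoietic stem cells (HSCs). In all 3 groups, sub-lethally irradiated F1 females carrying the Ly5.1 marker received HSCs of younger F1 females carrying Ly5.2, and lymphocytes of animals with chimerism were sorted. Recipients and donors were the same cross apart from the Ly5 marker, so any remaining host cells would be expected to carry the same alleles in the stretch. The polyclonal library E6.2 came from B220+IgM+ B cells of a recipient of 50 HSCs, with 58000 cells sorted. The monoclonal libraries came from CD4+CD8- thymic T cells of recipients of 1 HSC each, with 250000 cells sorted from the E6.43 animal and 177000 from the E15.10 animal. The HSCs came from donor animal 6 for the E6.2 and the E6.43 recipient and from donor animal 15 for the E15.10 recipient. No group has a replicate, so cell type, clonality, animal and library cannot be told apart, and no test between libraries was made. DNA carries no expression markers, so the labelled cell types could not be checked here. The libraries held 19471576, 13036005 and 10863972 allelic counts (E6.2, E6.43 and E15.10), of which 40925, 26125 and 12793 lay in the stretch.

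Tandem gene clusters arise when a segment is copied beside itself, and copies that are young differ at few positions. A read from such a copy can match several places of a reference genome, and reference assemblies of different strains can hold different numbers of copies. The cluster also contains the eosinophil-associated ribonucleases (Ear genes) and angiogenin-related genes (Ang), secreted enzymes of the ribonuclease A family that are known for rapid gene birth and loss in rodents. On both flanks lie ordinary genes, among them the collectins Mbl1, Sftpa1 and Sftpd, which bind sugars on microbes, and the prostaglandin receptors Ptgdr and Ptger2.

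Alignment of the transcripts to each other placed 69 genes with 242 SNPs in a family named here after its best covered gene, Gm6401, and 25 genes with 211 SNPs in a family named after Gm5799. Transcripts that aligned within the Gm6401 family had a median identity of 89.0%, and those within the Gm5799 family one of 92.7%. The remaining SNPs lay in 7 ribonuclease genes (114 SNPs), 15 genes with ordinary names (212 SNPs) and 12 other provisional genes (132 SNPs). Of the 128 genes, 77 are annotated as protein coding and 47 as pseudogenes. The annotation placed 222 SNPs in coding sequence, 376 in untranslated regions, 298 in exons of noncoding transcripts and 15 outside exons. Of these 15, 14 are the SNPs of 1700049E17Rik2 at chr14:43300798-43305953. The annotation used here places that gene elsewhere, at chr14:41573211-41581305, so the deposited gene models differ from it there. Unknown bases of the reference take up 250 kb of the stretch.

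The sequences show how alike the copies are. The first 4 are the 51 bases around a SNP of the pseudogene Gm17165, with the SNP position in capitals, and the same window in 3 other genes of its family. The Gm17165 window is chr14:42219407-42219457, and the others are chr14:41280948-41280998 (Gm2832), chr14:41997384-41997434 (1700024B05Rik) and chr14:42069262-42069312 (Gm7991), all on the plus strand.
Gm17165: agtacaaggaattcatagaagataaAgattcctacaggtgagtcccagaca
Gm2832: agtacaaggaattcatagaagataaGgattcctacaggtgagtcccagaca
1700024B05Rik: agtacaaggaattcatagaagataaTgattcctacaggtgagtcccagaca
Gm7991: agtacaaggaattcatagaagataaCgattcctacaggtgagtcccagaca

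Outside its centre, this window matched 27 other places exactly, 25 of them within the stretch, and at none of those places did the reference hold the base it has in Gm17165. The base was G at 14 places, C at 8 and T at 5. Maternal reads made up 78 of 750, 53 of 483 and 22 of 173 counts at this SNP (AI 0.104, 0.110 and 0.127), where values of the libraries are given, throughout, in the order E6.2, E6.43, E15.10. AI, the allelic imbalance, is the share of maternal (B6, reference) counts, so the SNP was read mainly as the paternal base in every library.

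The next sequences are windows that 2 listed SNPs share without any difference, again with the SNP in capitals. The Ear10 window, chr14:43923207-43923257, recurs on the minus strand in Ear2 at chr14:44102998-44103048. The Ear1 window, chr14:43818973-43819023, recurs in Ear10 at chr14:43922929-43922979. The window of the processed pseudogene Gm9550, chr14:43941198-43941248, recurs on the minus strand in Gm8194 at chr14:44022209-44022259.
Ear10 and Ear2: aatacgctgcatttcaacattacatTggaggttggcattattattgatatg
Ear1 and Ear10: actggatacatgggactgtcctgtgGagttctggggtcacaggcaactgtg
Gm9550 and Gm8194: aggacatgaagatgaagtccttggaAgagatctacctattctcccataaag

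The last pair sets a SNP whose window has 9 exact copies, all with the same base, in the pseudogene Gm7152 (chr14:42825441-42825491) beside one in Mbl1 (chr14:41153632-41153682), whose window was found nowhere else.
Gm7152: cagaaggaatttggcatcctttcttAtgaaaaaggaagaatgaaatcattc
Mbl1: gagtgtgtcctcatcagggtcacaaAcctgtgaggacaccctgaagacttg

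Exact copies of such windows were common throughout the cluster. With any base allowed at the centre, the 51-base window lay in more than 1 place of the genome for 425 of 911 SNPs (46.7%), compared with 4.42% of the other autosomal SNPs and 7.27% of those on the rest of chromosome 14. In the Gm6401 family 79.8% of windows had a copy, with a median of 9 places where they did, and in the Gm5799 family 64.9%. The share was 28.9% in the ribonuclease genes and 5.66% in the named genes. With windows of 75 bases on each side of the SNP, about as long as a read of these libraries, 33.9% of the Gm6401 family and 17.5% of the Gm5799 family still lay in more than 1 place.

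Less exact copies reached further. Windows of 150 bases on each side of the SNP were aligned next, and 605 of 911 (66.4%) aligned elsewhere on chromosome 14 with at least 90% identity, compared with 10.3% on the rest of the chromosome. All 242 SNPs of the Gm6401 family did so, with a median of 47 other places, and so did all 211 SNPs of the Gm5799 family, with a median of 24. The closest other place was identical at a median of 98.7% of bases. Of the 212 SNPs in named genes, 4 had such an alignment. Of 16196 other places on chromosome 14, the only chromosome searched by alignment, 91.0% lay inside the stretch itself.

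Allelic balance in the stretch was far from even. A SNP was called skewed where at least 10 counts were present and AI was under 0.25 or over 0.75, as in the exclusion of genes in the methods. Among SNPs with 10 counts, E6.2 had 218 of 427 skewed (51.1%), E6.43 had 182 of 388 (46.9%) and E15.10 had 135 of 313 (43.1%). Over all autosomal SNPs the skewed share was 7.61%, 8.51% and 8.37%. Because the stretch was chosen from this outcome, nothing is read from the difference.

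Both directions were present. AI under 0.25 was found at 72, 64 and 56 SNPs of the stretch (16.9%, 16.5% and 17.9%; E6.2, E6.43 and E15.10), beside 2.31%, 2.48% and 1.82% of all autosomal SNPs. AI over 0.75 was found at 146, 118 and 79 SNPs (34.2%, 30.4% and 25.2%), beside 5.30%, 6.03% and 6.55%. These opposite skews nearly cancelled in the sum. The maternal share of all counts of the stretch was 0.517, 0.517 and 0.501, while it was 0.541 over the autosomes in each library.

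**Figure D1:**
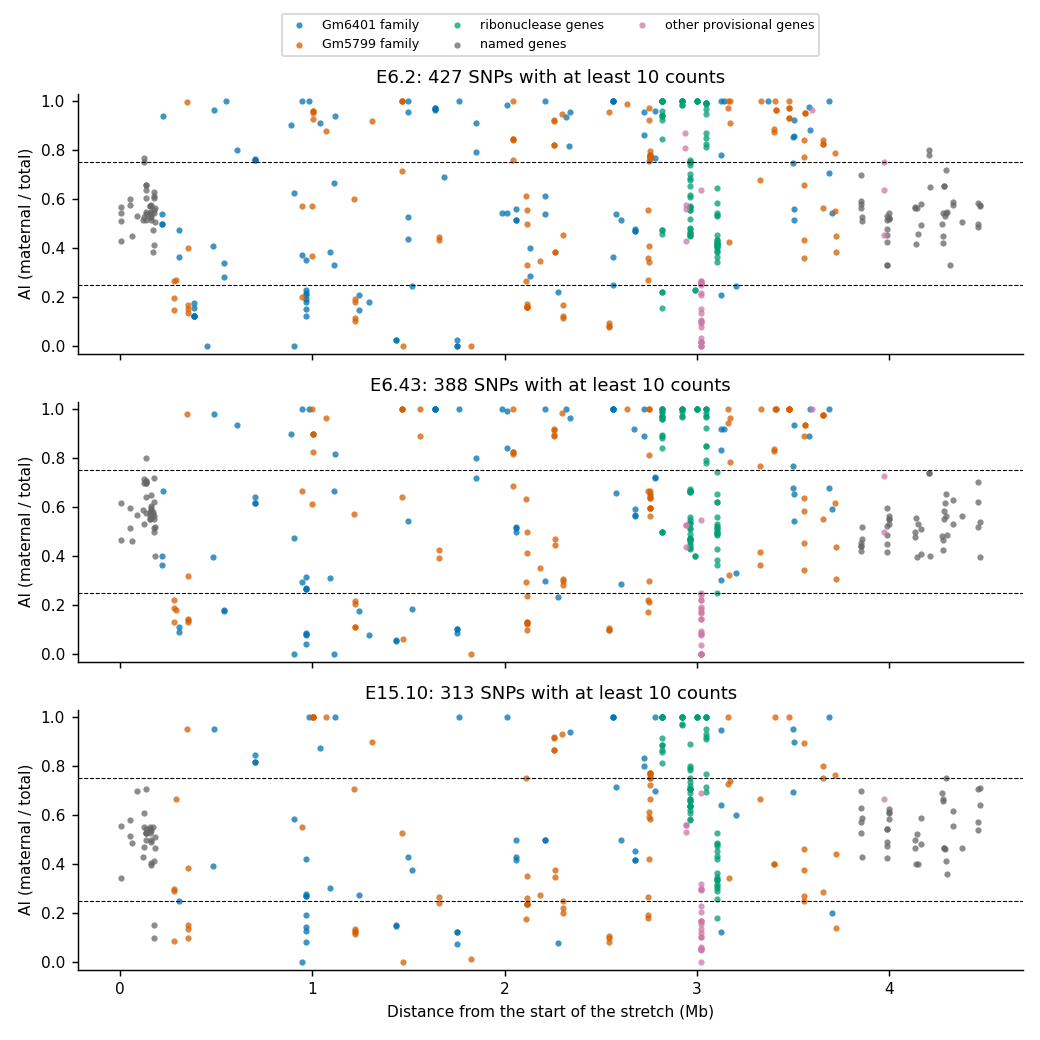
AI (maternal over total counts, y axis) of each SNP with at least 10 counts against its distance from the start of the stretch in Mb (x axis), 1 panel per library, coloured by gene group, with dashed lines at 0.25 and 0.75. Named genes at both ends gather around the middle, whereas SNPs of the duplicated families between them spread from 0 to 1 in each library.

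The skew followed the gene groups. In the Gm6401 family 65.1%, 59.8% and 56.9% of the measured SNPs were skewed, and in the Gm5799 family 70.8%, 64.3% and 55.4%. In the ribonuclease genes the shares were 50.0%, 43.4% and 49.4%, nearly all of them with AI over 0.75. In the named genes within the same stretch, 3 of 84, 1 of 78 and 2 of 70 SNPs were skewed (3.57%, 1.28% and 2.86%). The named genes sat below the autosomal share in each library, while the other groups of the stretch sat above it. The stretch was chosen on its allelic counts and the families were formed with values in view, so this is a description.

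Other multigene families gave a scale for these shares. Of the SNPs in olfactory receptor genes of chromosome 2, 4.08%, 4.37% and 9.76% were skewed, and of those in type 2 vomeronasal receptor genes 17.6%, 18.9% and 24.7%. Their 51-base windows had copies for 14.6% and 25.6% of SNPs. Among autosomal windows of 4.5 Mb with at least 50 measured SNPs, 2 of 516 in E6.2 had a higher skewed share than the stretch with its 51.1%. Both were on chromosome 7. From 32.0 to 36.5 Mb 99.4% were skewed and 4.48% of the SNP windows had copies. From 27.5 to 32.0 Mb the shares were 51.2% and 5.33%. The study reports a large deletion shared by all E6 samples, without its position. Whether it lies in these windows was not tested. In E6.43 3 of 514 windows stood higher and in E15.10 1 of 503. In copied SNP windows, 1 window of the genome stood higher, chromosome 14 from 0.5 to 5.0 Mb. There 86.7% of the SNP windows had copies and 43.4% of the measured SNPs were skewed in E6.2. From 5.0 to 9.5 Mb of that chromosome the shares were 35.3% and 35.1%, so a high skewed share was not particular to the stretch.

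**Figure D2:**
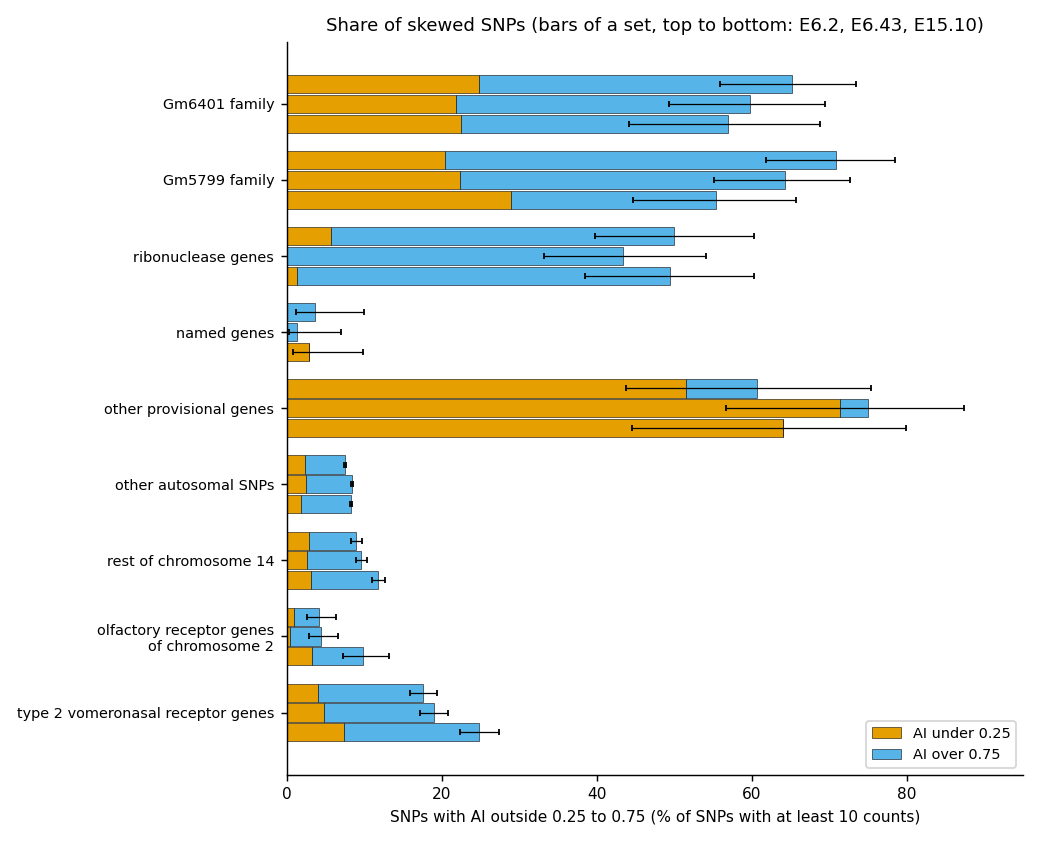
Share of SNPs with AI outside 0.25 to 0.75 among SNPs with at least 10 counts (x axis, %) for the 5 gene groups of the stretch and 4 comparison sets, with 3 bars per set from top to bottom for E6.2, E6.43 and E15.10. Orange is AI under 0.25, blue AI over 0.75, and the error bar is the 95% Wilson interval of the total; the named genes of the stretch stay between 1.28% and 3.57%, the Gm5799 family between 55.4% and 70.8%.

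The skew also moved with how close the nearest copy was. Of the SNPs with no other alignment on chromosome 14, 12.4%, 5.56% and 8.75% were skewed. Most of these SNPs lay in named genes, so this share largely restates that of the named genes. The skewed SNPs among them included the 4 measured SNPs of Ang6, with AI of 1.00 in each library. Where the closest alignment had under 97% identity the share was 45.7%, 21.7% and 34.1%, from 97% to 99% it was 60.5%, 64.5% and 52.4%, and at 99% or more it was 70.1%, 68.4% and 69%. Neighbouring SNPs can share reads, so 1 short segment can weigh heavily in these shares. A run of Gm6526 SNPs under 97%, from chr14:43754865 to chr14:43754986, is an example. Its first and last SNP had AI of 0.765 and 0.794 in E6.2, but 0.564 and 0.655 in E6.43. Where all exact copies of the 51-base window held the same centre base as the SNP, 71.1%, 68.3% and 73.2% were skewed. Where all held another base, the share was 51%, 57.1% and 41.5%, and where copies of both kinds existed it was 69.8%, 68.1% and 53.3%. Where the window had no exact copy, the share was 34.2%, 27.1% and 26.2%. Whether reads were exchanged between copies was not tested, since the files hold no reads.

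**Figure D3:**
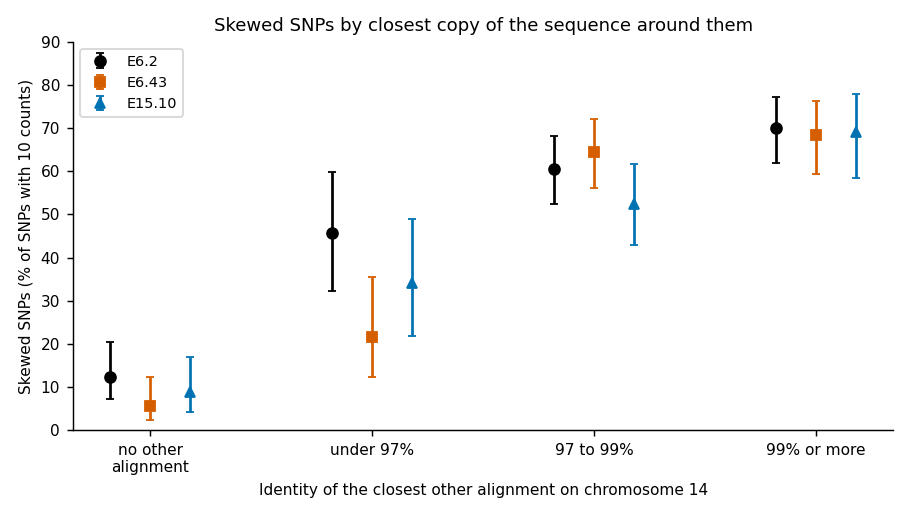
Share of skewed SNPs of the stretch (y axis, % of SNPs with at least 10 counts) by the identity of the closest other alignment of the window of 150 bases on each side of the SNP on chromosome 14 (x axis), with 95% Wilson intervals. In the 3 libraries the share is 5.56% to 12.4% without another alignment and 68.4% to 70.1% at 99% identity or more. Most SNPs without another alignment lie in named genes, and neighbouring SNPs can share reads.

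By gene, E6.2 had 53 of 102 genes with at least 10 counts skewed, E6.43 had 48 of 97 and E15.10 had 34 of 87. Over all autosomal genes the share was 5.32%, 5.56% and 5.24%. Of 85 genes with 10 counts in all 3 libraries, 28 were skewed in each, 8 of them under 0.25 and 20 over 0.75, beside 2.22%, 0.624% and 1.57% of all such autosomal genes, and no gene was under 0.25 in one library and over 0.75 in another. No named gene was skewed in any library. No counts were recorded in any library for 13 genes.

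In the Gm5799 family, which has 18 protein-coding genes and 7 pseudogenes by annotation, 4, 4 and 3 genes had AI under 0.25 and 9, 10 and 6 over 0.75, and the best covered genes were low or intermediate. Gm5799 itself (chr14:43543576-43551213, plus strand) had 206 of 2163, 146 of 1360 and 56 of 581 maternal counts, an AI of 0.0952, 0.107 and 0.0964. Nearly all of these counts came from 3 neighbouring SNPs within the length of a read. A further SNP in the gene's coding sequence, chr14:43544573, had an AI of 0.955 over 22 counts in E6.2. The gene value is thus that of 1 short segment.

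Gm17165 (chr14:42218285-42220283, plus strand) was low as well, with AI of 0.161, 0.166 and 0.182 over 1872, 1180 and 445 counts. Its first SNP, chr14:42218333, differed from the other 4, with AI of 0.601, 0.571 and 0.707. Gm2832 had 0.217, 0.189 and 0.279 over 914, 518 and 154 counts. The pseudogene Gm7152, singled out after its values were seen, had 1 of 332, 0 of 241 and 1 of 78 maternal counts. A share of 0 of 241 allows up to 3 counts, 1.24%, and this bound covers counting error only.

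Other well covered genes of the family were intermediate. Gm8126 (chr14:43258649-43266799, plus strand) had AI of 0.641, 0.696 and 0.658 over 1815, 1219 and 427 counts, but its SNPs divided into segments. Near the gene's start, chr14:43258658 had AI of 0.921, 0.918 and 0.919, while chr14:43261666 had 0.383, 0.444 and 0.347. Gm5798 held SNPs of both extremes in each library, from 0.995, 0.981 and 0.952 at chr14:41348656 to 0.137, 0.139 and 0.0980 at chr14:41351568, and the sum over the gene was 0.416, 0.355 and 0.366. Gm6526 was 0.538, 0.392 and 0.493 over 1976, 1075 and 471 counts.

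The genes of the family over 0.75 in every library had fewer counts, and the following were singled out after their values were seen. The gene 1700024B05Rik had 0.806, 0.852 and 0.862 over 427, 209 and 138 counts, Gm3371 0.932, 0.921 and 0.774 over 295, 177 and 53, and the pseudogene Gm17184 0.976, 1.00 and 1.00 over 164, 112 and 32. Of the further members, Gm5624, Gm8267, Gm8104, 4930503E14Rik and Gm8257 lay between 0.279 and 0.767, a range that does not cover the rest of the family. Gm5624 had AI of 0.549, 0.536 and 0.441, Gm8267 0.457, 0.442 and 0.419, and Gm8104 0.312, 0.279 and 0.297. The gene 4930503E14Rik had 0.760, 0.695 and 0.674, so that it passed the upper limit in E6.2 alone. Gm8257 had 0.710 and 0.767 in E6.2 and E6.43 over 373 and 249 counts, but 0.493 in E15.10 over 69 counts. Its difference between E15.10 and E6.43 was the only one of at least 0.25 among 44 genes with 50 counts in both.

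In the Gm6401 family, Gm6401 (chr14:41962708-41967927, minus strand) had 317 of 1551, 143 of 919 and 84 of 394 maternal counts, an AI of 0.204, 0.156 and 0.213. All of its 8 measured SNPs were between 0.122 and 0.352 in E6.2. Gm3327 (chr14:44123851-44129043, plus strand) had AI of 0.589, 0.677 and 0.592 over 129, 99 and 49 counts. That value was made of 3 SNPs in its coding sequence with AI of 1.00, 0.780 and 0.208 in E6.2, 0.917, 0.833 and 0.303 in E6.43, and 0.947, 0.643 and 0.125 in E15.10. The order of the 3 SNPs was the same in every library, and in E6.2 none of them lay between 0.4 and 0.6 although the gene's value did.

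Genes that held SNPs of both extremes were seen elsewhere too. Of the genes of the stretch with at least 2 measured SNPs, E6.2 had 7 of 70, E6.43 had 4 of 66 and E15.10 had 5 of 50 with one SNP under 0.25 and another over 0.75. Of other autosomal genes 1.62%, 1.99% and 2.58% did. Adjacent SNPs, which can lie on the same reads, had similar values. Of neighbouring SNP pairs at most 75 bp apart, 1.49%, 0.556% and 0.662% differed by 0.25 or more in AI (3, 1 and 1 pairs), and none by 0.5. Of other autosomal pairs, 0.983%, 1.00% and 0.728% differed by 0.25 or more.

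The ribonuclease genes were read mainly as maternal, with exceptions. Ear10 (chr14:43922720-43923559, minus strand) had 797 of 801, 379 of 384 and 271 of 273 maternal counts, an AI of 0.995, 0.987 and 0.993. Ear1 had 0.90, 0.908 and 0.927 over 1395, 928 and 533 counts, but its 6 SNPs from chr14:43819579 to chr14:43819639, in an untranslated region, had AI from 0.154 to 0.472 in E6.2 over 13 to 37 counts. The pseudogene Ear-ps2 had 0.924, 0.918 and 0.893. Ang6, also singled out after its values were seen, was maternal in 249 of 249, 176 of 176 and 81 of 81 counts. No paternal read was counted at its 4 measured SNPs, which allows a paternal share of up to 1.20%, 1.70% and 3.70% of the summed counts. These SNPs lie within the length of a read and had 59 to 65, 41 to 46 and 19 to 21 counts each. The same reads are thus counted repeatedly, and the bounds are too low.

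Ear2 (chr14:44102654-44103534, plus strand), the best covered gene of the stretch, behaved otherwise. It had 1549 of 3628, 1406 of 2855 and 525 of 1495 maternal counts, an AI of 0.427, 0.492 and 0.351. Within it, E6.2 values ran from 0.343 to 0.647. Ang5 had 0.593, 0.527 and 0.675 over 1794, 1457 and 729 counts. Ear1 and Ear2 transcripts align with 96.4% identity and Ear2 and Ear10 with 94.5%. The pseudogene Ear-ps10 had 0.196, 0.528 and 0.462 over 92, 53 and 13 counts. These sums rest on 27 SNPs with at most 13 counts each, and neighbouring SNPs repeat the same reads.

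Among the other provisional genes, Gm8194 (chr14:44021600-44022458, minus strand) supplied 27 of 132 SNPs and most of the counts. It had 282 of 1487, 120 of 750 and 165 of 795 maternal counts, an AI of 0.190, 0.160 and 0.208. A single SNP of this pseudogene, chr14:44022067, stood at 0.638, 0.547 and 0.692 over 94, 53 and 52 counts. Its 51-base window had no other place in the genome. The window of chr14:44022425 had no other place either, yet E6.2 read that SNP as maternal in 0 of 11 counts. Both monoclonal libraries had fewer than 10 counts there. The remaining Gm8194 SNPs with such windows stayed below 10 counts in every library. The transcript of Gm8194 aligned to that of Gm9550 with 99% identity. Gm16439 (chr14:44596665-44597228) had 1 SNP, which was maternal in 51 of 53, 22 of 22 and 7 of 7 counts, the last below the minimum of 10.

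Of the 15 named genes on the flanks, 14, 14 and 12 had AI between 0.4 and 0.6, and the highest values in E15.10 were 0.700 in Dydc1 and 0.682 in Gpr137c, over 60 and 88 counts. Mbl1 (chr14:41151458-41159601, plus strand) had 755 of 1382, 470 of 798 and 241 of 481 maternal counts, an AI of 0.546, 0.589 and 0.501. Its 9 measured SNPs lay between 0.513 and 0.576 in E6.2. The surfactant collectins had 0.60, 0.681 and 0.560 in Sftpa1 and 0.537, 0.549 and 0.449 in Sftpd. Ptger2 had 0.499, 0.522 and 0.561, Ptgdr 0.576, 0.466 and 0.555, and Txndc16, a thioredoxin-domain protein, 0.549, 0.518 and 0.476. Ero1l, an oxidase of the endoplasmic reticulum, had 0.582, 0.573 and 0.467. The first gene, Fam213a, had 0.553, 0.533 and 0.427 at its SNPs inside the stretch, and the last, Fermt2, an integrin activator, 0.545, 0.548 and 0.642.

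**Figure D4:**
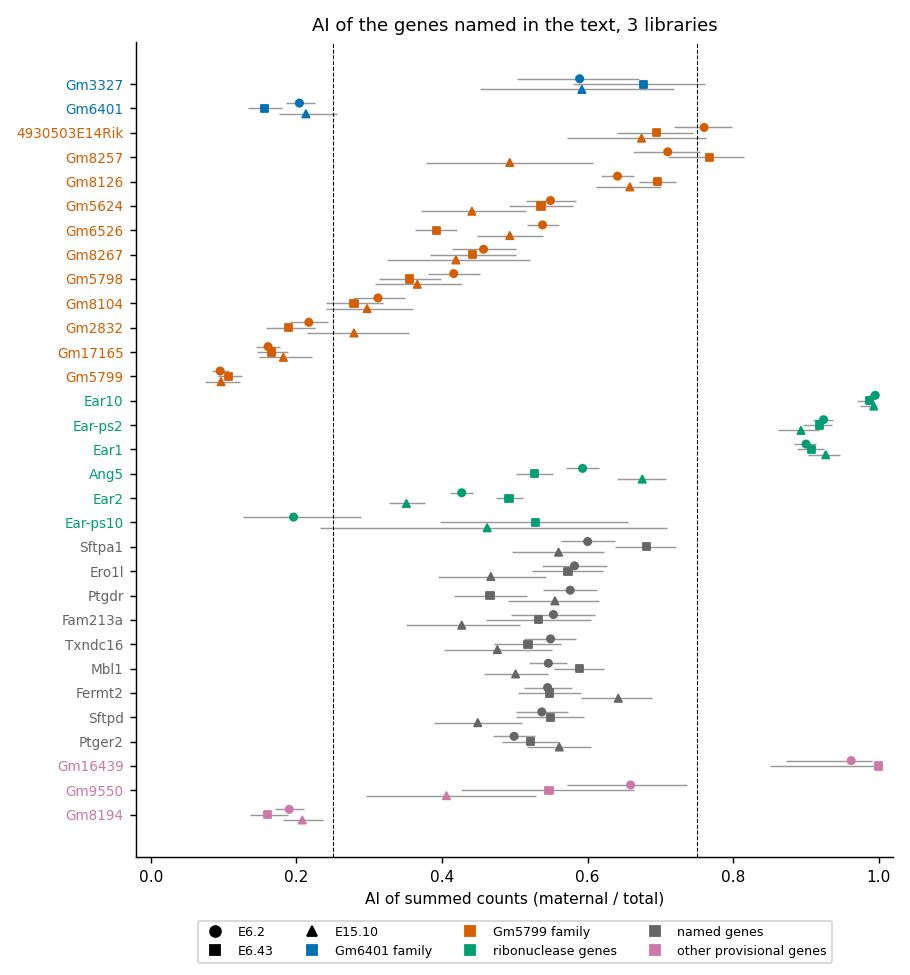
AI of summed counts (x axis, maternal over total) of the genes with the most counts or a difference between libraries, with circles for E6.2, squares for E6.43 and triangles for E15.10, 95% Wilson intervals as grey bars and dashed lines at 0.25 and 0.75. Only values over at least 10 counts are drawn; genes of the duplicated groups reach from 0.0952 (Gm5799) to 0.995 (Ear10) in E6.2, while the named genes lie between 0.499 and 0.60.

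At the bounds of the stretch, SNPs on both sides lay in the same gene. The last SNP before it, chr14:40994560 in Fam213a, had 37 of 65, 32 of 42 and 27 of 34 maternal counts, and the first inside, chr14:41002466 in the same gene, 67 of 118, 58 of 94 and 22 of 64. The last SNP inside, chr14:45476040 in Fermt2, had 116 of 202, 39 of 98 and 52 of 81. The first beyond, chr14:45529958, had at most 2 counts.

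Pairs of listed SNPs whose 51-base windows match outside the SNP position allowed the alleles of copies to be set side by side. There were 68 pairs, 67 with the same reference base at the SNP, of which 26, 20 and 14 had at least 10 counts at both SNPs. In E6.2, 15 of these 26 differed in AI by at least 0.25 and 11 by at least 0.5. In 7 pairs one copy was under 0.25 and the other over 0.75, and in 9 both were on the same side. The pair with different reference bases, Gm17038 and Gm3216, is among these 7, with AI of 0.211 over 19 counts and 1.00 over 46. In E6.43 the corresponding counts were 11, 6, 4 and 7 of 20 pairs, and in E15.10 7, 6, 2 and 6 of 14. The pairs are not independent. In E6.2, Gm8126 with Gm5799, Gm9550 with Gm8194, and Gm7945 with Gm8020 each gave more than 1 of the 7 opposite pairs. Those pairs lie at neighbouring SNPs that can share reads. Most of the 9 pairs on the same side compare neighbouring SNPs of Ear1, Ear10 and Ear-ps2.

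Gm8126 and Gm5799 mirrored each other. At chr14:43258658 in Gm8126, AI was 0.921, 0.918 and 0.919 over 240, 183 and 62 counts, and at its copy in Gm5799, chr14:43543627, it was 0.0829, 0.10 and 0.106 over 700, 450 and 188. The copies had the same reference base, and Gm5799 took more of the counts in each library. Taken as 1 site, the pair had an AI of 0.297, 0.336 and 0.308.

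The Ear genes showed the same arrangement in part. At the printed Ear10 window AI was 0.983, 0.970 and 0.971 over 121, 67 and 34 counts, and at its copy in Ear2 0.365, 0.385 and 0.290 over 282, 262 and 131. Summed over both copies it was 0.551, 0.505 and 0.430. At the printed window of Ear1 and Ear10, in contrast, both copies were maternal, with 1.00, 0.987 and 1.00 in Ear1 and 1.00 in Ear10 in each library. The copy of that window in Ear-ps2 had 0.992, 1.00 and 1.00.

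Gm9550 and Gm8194 were on opposite sides in E6.2, the one library with enough counts. At their printed window AI was 0.808 over 26 counts in Gm9550 and 0.219 over 64 in Gm8194. In E6.43 and E15.10 Gm9550 had 4 of 6 and 0 of 8 maternal counts at this SNP, too few for the comparison, beside 7 of 29 and 9 of 28 in Gm8194. The few E15.10 counts thus did not repeat the opposite sides of E6.2. Over the whole gene, Gm9550 had 0.659, 0.547 and 0.406 over 126, 64 and 64 counts, and its difference between E15.10 and E6.2 was the only one of at least 0.25 among 44 genes with 50 counts in both libraries. These sums count reads shared by neighbouring SNPs more than once. At chr14:43941211, maternal counts were 20 of 23 in E6.2 and 0 of 8 in E15.10. The 3 SNPs with 10 counts in E15.10 had AI of 0.577, 0.560 and 0.429 in E6.2 and 0.562, 0.562 and 0.533 in E15.10.

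**Figure D5:**
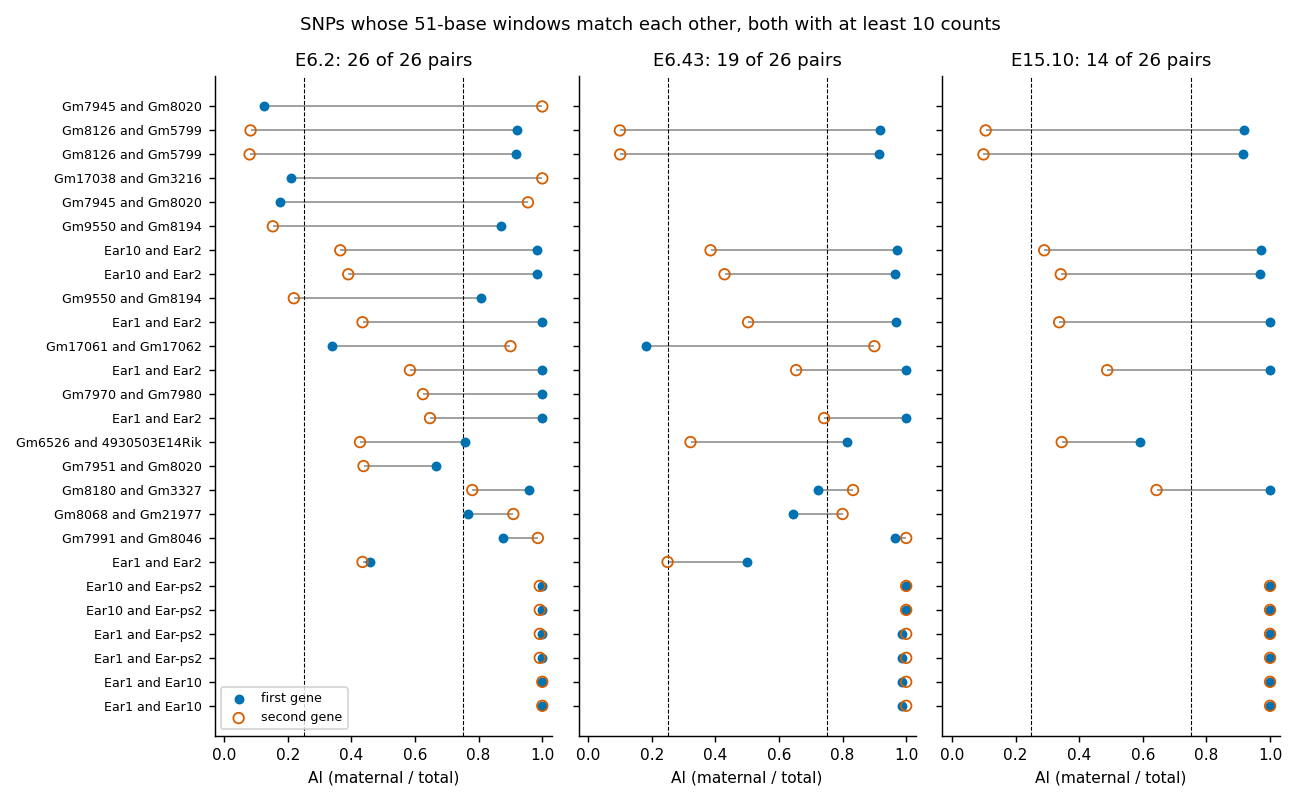
AI (x axis, maternal over total) of the 26 pairs of SNPs with matching 51-base windows and at least 10 counts at both in E6.2, 1 line per pair and 1 panel per library, with filled points for the first and open points for the second gene of the label and dashed lines at 0.25 and 0.75. Pairs without 10 counts at both SNPs of a library are left blank there; the Gm8126 and Gm5799 pairs span the plot in the 3 panels and the pairs among Ear1, Ear10 and Ear-ps2 coincide near 1.

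The pattern of the stretch was shared between libraries. Of SNPs with 10 counts in both libraries, 12 of 383 differed in AI by at least 0.25 between E6.43 and E6.2, 16 of 313 between E15.10 and E6.2, and 20 of 310 between E15.10 and E6.43. This was 3.13%, 5.11% and 6.45%, beside 4.97%, 7.69% and 9.00% of all autosomal SNPs. Of 310 SNPs with 10 counts in all libraries, 173 were skewed in at least 1 and 103 in all 3, and none was on opposite sides in 2 libraries. In the rest of the autosomes, 3824 of 22518 such SNPs were skewed in all 3.

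Across SNPs, which share reads and copies and are no independent replicates, Pearson's r of AI was 0.944 between E6.43 and E6.2, 0.915 between E15.10 and E6.2, and 0.882 between E15.10 and E6.43. In the named genes alone, where AI varied little, it was 0.389, 0.261 and -0.105. E6.2 and E6.43 share a donor and E15.10 does not, and the monoclonal libraries share cell type. The only gene with 50 counts in both and a difference of at least 0.25 between E6.43 and E6.2, of 67, was Ear-ps10.

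Coverage of the stretch was close to that of other SNPs in E6.2 and E6.43 and lower in E15.10. A SNP of the stretch had on average 44.9, 28.7 and 14 counts, and an autosomal SNP 43.2, 28.9 and 24.2. Per 10000 autosomal counts, the stretch took 21.6, 20.6 and 12. Its share in E15.10 was thus 0.556 of that in E6.2. The ratio expected from the GC content around the SNPs, taken from all autosomal SNPs of like GC content, was 0.729, and no other part of the difference was tested.

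Against E6.2, the lower coverage of E15.10 was found in each group of genes. Its share over that of E6.2 was 0.458 in the Gm6401 family and 0.429 in the Gm5799 family, 0.688 in the ribonuclease genes and 0.639 in the named genes, beside expected ratios from GC content of 0.700, 0.628, 0.680 and 0.90. It was 0.909 in the other provisional genes, expected 1.13, and against E6.43 that group had a larger share in E15.10, with a ratio of 1.21. All 15 named genes and all 23 genes of the Gm5799 family with 50 counts in E6.2 had a smaller share in E15.10. Outside the stretch, the ratio was 0.297 for the olfactory receptor genes of chromosome 2 and 0.312 for the type 2 vomeronasal receptor genes, so lower coverage in E15.10 was not particular to the stretch. The depth of E15.10 leaves 58 measured SNPs in the Gm6401 family, compared with 109 in E6.2.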

How the data were processed

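Exome DNA of 3 libraries was captured with the Agilent SureSelect Mouse All ExonV6 kit and sequenced as 150 bp paired ends. The authors deposited whole-number counts of maternal (B6) and paternal (CAST) reads per SNP and gene, with a series table of counts, the fraction AI, and the bounds, p-values and calls of the authors' own test per gene. The deposited fraction AI of that table was used in an alternative, and the authors' bounds, p-values and calls were not used. The submitters' processing notes list cutadapt 1.14, Trim Galore, STAR 2.5.4a, SAMtools and GATK with GRCm38; exome alignment and counting were based on the ASEReadCounter* pipeline, whose STAR step kept only unique alignments where it is described for RNA-seq; exome settings beyond that and the treatment of duplicates are not given in the sources used here. If the exome step was the same, reads shared by copies would be missing from the counts. Totals were 19471576, 13036005 and 10863972 counts; Wilson intervals at 95% cover counting error only and are too narrow where SNPs share reads.

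Members and lists were chosen with earlier results of these data known. AI was the maternal over total count at a minimum of 10 counts. Named genes were Gm3327, Gm16439, the first and last gene, the 12 provisional, 5 ribonuclease and 8 ordinary genes with most counts, and for each pair of libraries up to 3 genes with 50 counts and an AI difference of at least 0.25. BC061237 was counted as provisional and Ear pseudogenes as ribonuclease genes after values were seen. Further choices with the values in view were the families (transcripts aligned by BLAST 2.17.0 at 80% identity over 50% of the shorter), the alignments of 150 bases on each side of a SNP (90% identity over 200 bases), the SNP pairs, the naming of genes outside this rule and the GC expectation (bins of 5%). Gene models came from GENCODE M21 and sequences from RefSeq GRCm38. Exact window copies were counted on both strands with numba 0.67.0, and the scripts were tested on simulated data. The sources place the E6.2 B cells in spleen or bone marrow, and the tissue was not used. Columns of no library numbered 0.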

Additional observations from a re-analysis of the deposited data

How the results depend on the processing

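No paired analysis was possible because each group has 1 library. Of 64 alternatives, 25 left the value within its interval or within 1.5 times the count. In the order E6.2, E6.43 and E15.10, the skewed share of SNPs was 46.0%, 39.5% and 30.7% with 50 counts and 27.4%, 28.1% and 21.7% with limits of 0.1 and 0.9; over all autosomal SNPs it was 4.83%, 4.73% and 2.95%, and 3.06%, 3.12% and 2.01%. Skewed genes numbered 27 of 102, 27 of 97 and 17 of 87 with limits of 0.1 and 0.9. In the series table of genes with at least 90 counts they numbered 29 of 65, 22 of 55 and 8 of 30. With 50 counts E6.43 had 29 of 68 and E15.10 had 15 of 44. The shares over all autosomal genes at these settings were not computed, so these counts are a description. The share per 10000 was 20.1, 18.9 and 9.79 with SNPs at least 300 bp apart, 561, 556 and 352 of chromosome 14 counts, 12.2, 11.3 and 5.78 for provisional genes alone, and 12, 11.1 and 5.71 with BC061237 left out of these, a setting chosen after seeing the data. SNPs that differed between libraries (in the order of the pairs in the report) numbered 1 of 190, 0 of 75 and 1 of 75 with 50 counts in both. At a difference of 0.5 they numbered 0 of 383, 0 of 313 and 0 of 310, and with SNPs 300 bp apart 7 of 173, 9 of 137 and 11 of 134. The autosomal shares at these settings were not computed. Windows in more than 1 place made up 56.1%, 29.2% and 17.1% with 15, 50 and 75 bases on each side of the SNP, and 66.4% by alignment, also chosen after seeing the data. Fewer SNPs, genes or counts enter each stricter setting by construction. Depth limits E15.10 most, with 313 SNPs of at least 10 counts beside 427 in E6.2, and no replicate gives an error between animals.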
